A study of Mus musculus with 7 samples.

Results

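The genes described here encode the proteins that form, restrain and dissolve blood clots. They are 36 of the 14819 entries in a table of read counts per gene from mouse primary hepatocytes. They were chosen by name for their place in the pathway, with earlier results of these data known. All 36 were in the table and passed the filter on low counts. By role they are 17 procoagulant genes, 8 anticoagulant genes, 6 genes of fibrinolysis, and 5 genes that serve the vitamin K cycle or carry clotting factors out of the cell. The study compared hepatocytes of wild-type mice (WT, n = 4 libraries) with those of WDR6-WKO mice (n = 3 libraries), to learn how the transcriptome changes when *Wdr6*, which encodes a WD40-repeat protein, is lost.

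All animals were male. WDR6-WKO mice lack exon 2 of *Wdr6* in every tissue, the result of CRISPR–Cas9 editing, so any other liver cell carried along with the hepatocytes also carried the deletion. The study's default animals were young C57BL/6J mice, and its methods state no separate strain or age for the WDR6-WKO line or for the mice of this experiment. Hepatocytes of both genotypes were obtained by perfusing the liver with collagenase in a 2-step procedure, were kept overnight in William's E medium with fetal bovine serum, and received no drug. The labels call the libraries replicates, and the design text speaks of independent experiments.

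Blood clots when tissue factor meets factor VII, or when the contact factors are activated on a surface, and both routes lead to factor X, which together with factor V turns prothrombin into thrombin. Thrombin cuts fibrinogen, a protein of Aα, Bβ and γ chains, into fibrin. Antithrombin, heparin cofactor II, tissue factor pathway inhibitor and the protein C system hold this back, and plasmin, made from plasminogen by tissue-type and urokinase-type activators, dissolves the fibrin. Hepatocytes make most of the circulating factors, whereas factor VIII, von Willebrand factor and thrombomodulin are mainly endothelial products, and tissue factor and the urokinase receptor sit on the surface of many cell types.

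The libraries held between 17816913 and 23668940 counted reads. *Wdr6* itself was at 49.0, 40.6, 40.9 and 45.6 CPM (the reads of a gene scaled to a common library size with the TMM factors of edgeR) in WT replicates 1 to 4 and at 2.58, 2.32 and 2.23 CPM in WDR6-WKO replicates 1 to 3, so each library matched its genotype. WDR6-WKO replicate 3 stood apart from the other WDR6-WKO libraries on the second principal component of log2 CPM, at −20.6 against 6.2 and 7.9. Values without it are given beside some of the results that it moved. In a bulk library, fewer cells of a type and less RNA per cell cannot be told apart.

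Of the 36 genes, 17 differed between genotypes at an adjusted p below 0.05 (edgeR's quasi-likelihood test, Benjamini-Hochberg adjustment over 14779 genes tested), which is 47.2%, against 12.8% of all genes tested. Most of them fell. *F11*, *Kng1*, *Kng2*, *F2*, *F10*, *Fga*, *Fgb*, *Proc*, *Proz*, *Plat*, *Serpinf2*, *Ggcx* and *Lman1* were lower in WDR6-WKO, 13 genes or 36.1%, against 6.18% of all genes tested. *F3*, *Thbd*, *Plau* and *Plaur* were higher, 4 genes or 11.1%, against 6.65% of all genes tested. The median log2 fold change (WDR6-WKO relative to WT) of the 36 genes was −0.16, and that of all genes tested was 0.01. In 21 of the 36 genes, 58.3%, no WDR6-WKO library reached into the range of the WT libraries in CPM, against 23.5% of all genes tested. The thresholds of the study's methods are a log2 fold change of 0.35 or more in either direction and an unadjusted p below 0.05. Under them 11 of the 36 genes were called, against 1532 of the 14779 genes tested (10.4%). Without WDR6-WKO replicate 3, 22 of the 36 genes were called, 17 of them lower, while the share called among all genes rose to 28.6%. Without WT replicate 4, 11 of the 36 were called, and the share among all genes was 8.03%.

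**Figure D1:**
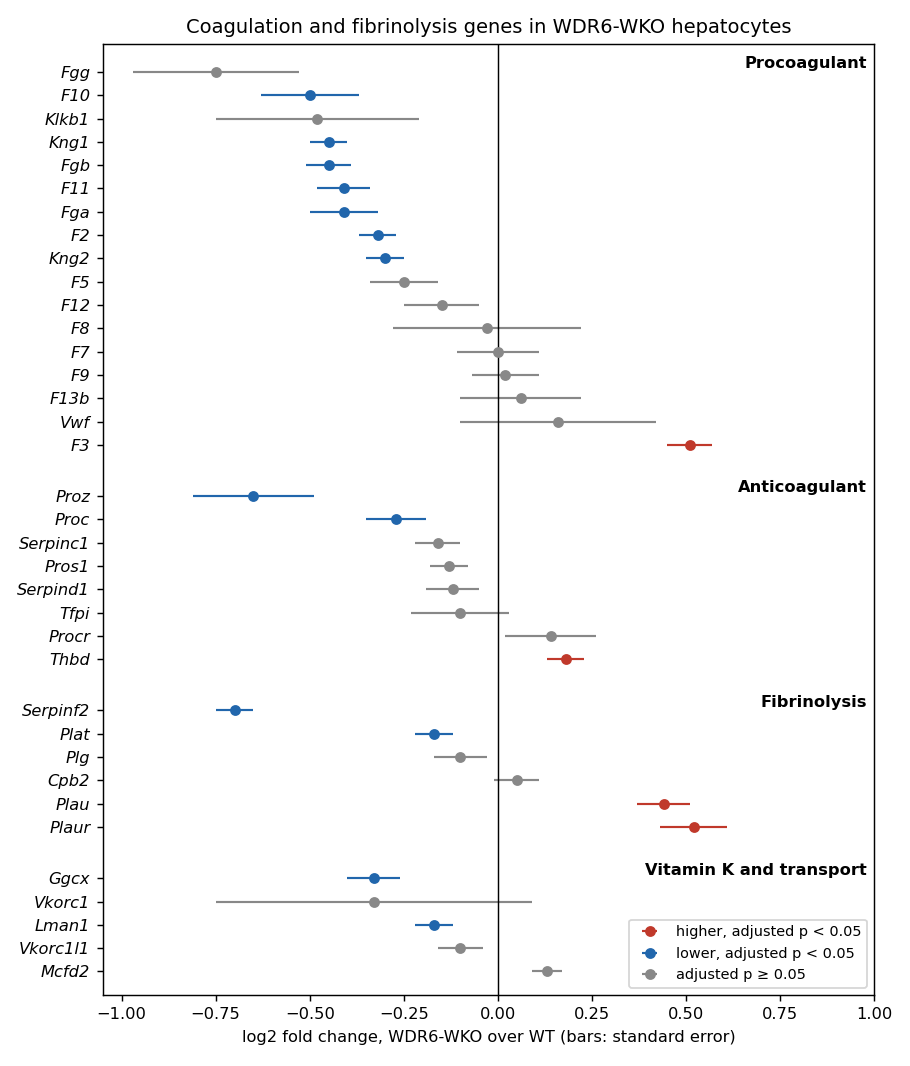
Log2 fold change (WDR6-WKO relative to WT, x axis) of each of the 36 genes (y axis), grouped by role, with bars for the standard error and colour for genes with an adjusted p below 0.05 (higher in red, lower in blue, others in grey). The lower genes run through every role, from *Serpinf2* at −0.70 to *Plat* and *Lman1* at −0.17, and the 4 higher genes are *F3*, *Thbd*, *Plau* and *Plaur*.

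*Fgb* and *Fga* fell in WDR6-WKO, and the third fibrinogen gene, *Fgg*, was lower without passing the test. The 3 genes lie together on chromosome 3 of GRCm38 in the order *Fgg* (83007724 to 83015049, plus strand), *Fga* (83026076 to 83033627, plus strand) and *Fgb* (83040141 to 83049863, minus strand), with 11 kb and 6.51 kb between them. Their promoters are shown because the genes are neighbours, encode the chains of 1 protein and had fitted values of the same sign. Each RefSeq window on GRCm38.p6 runs from 250 bases before to 50 bases after the start of transcription, 5′ to 3′ on the strand of the gene. Capitals mark matches, on either strand, to the letters GTTAAT (the core of an HNF1 half-site) or TTGCNNAA (a C/EBP site). *Fga* is read from chr3:83025903-83026202 on the plus strand, *Fgb* from chr3:83049814-83050113 on the minus strand and *Fgg* from chr3:83007474-83007773 on the plus strand.
Fga: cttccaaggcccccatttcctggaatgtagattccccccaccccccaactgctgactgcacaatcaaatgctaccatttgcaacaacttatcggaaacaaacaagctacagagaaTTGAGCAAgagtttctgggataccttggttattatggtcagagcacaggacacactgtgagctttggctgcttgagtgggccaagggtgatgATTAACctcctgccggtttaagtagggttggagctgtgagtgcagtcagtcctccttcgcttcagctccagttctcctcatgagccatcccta
Fgb: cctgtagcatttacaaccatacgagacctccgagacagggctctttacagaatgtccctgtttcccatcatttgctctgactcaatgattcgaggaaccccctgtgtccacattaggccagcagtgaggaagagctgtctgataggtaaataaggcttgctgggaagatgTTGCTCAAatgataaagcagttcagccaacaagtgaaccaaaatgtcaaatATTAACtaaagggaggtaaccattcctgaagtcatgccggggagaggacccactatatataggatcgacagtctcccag
Fgg: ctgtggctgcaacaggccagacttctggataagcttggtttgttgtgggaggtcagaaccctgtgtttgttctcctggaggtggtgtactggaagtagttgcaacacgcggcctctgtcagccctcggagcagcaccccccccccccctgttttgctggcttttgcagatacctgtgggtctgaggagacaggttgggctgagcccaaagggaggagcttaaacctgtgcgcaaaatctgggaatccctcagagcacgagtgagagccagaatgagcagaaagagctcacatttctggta
Counted from the RefSeq start of transcription, the GTTAAT match begins at −43 in *Fga* and −29 in *Fgb*, the TTGCNNAA match begins at −135 in *Fga* and −80 in *Fgb*, and the *Fgg* window holds neither. For *Fgb* and *Fgg* this start is the boundary of the gene given above, but for *Fga* it lies inside the gene. The positions in *Fga* and *Fgb* may therefore not share an origin.

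*Fgb*, the Bβ chain, had the highest level per length of the 36 genes, at 650.4 CPM per kilobase of transcript in WT, followed by *Fga*, the Aα chain, at 242 CPM per kilobase. *Fgb* was at 2265, 2331, 2657 and 2659 CPM in WT and at 1869.6, 1721 and 1835 CPM in WDR6-WKO. All 3 WDR6-WKO libraries lay below all 4 WT libraries, and *Fgb* fell by 27.0%, with a log2 fold change of −0.45 ± 0.06 (s.e.; adjusted p = 0.000143, edgeR). *Fga* was at 552, 569, 713 and 671 CPM in WT and at 499, 439 and 477 CPM in WDR6-WKO. The groups did not overlap here either, although WT replicates 1 and 2 were nearer to the WDR6-WKO libraries than WT replicates 3 and 4 were, and the log2 fold change was −0.41 ± 0.09 (adjusted p = 0.0105). The adjusted p of *Fga* was 0.0643 to 0.118 without WDR6-WKO replicate 2 or replicate 3, with log2 fold changes of −0.42 to −0.36.

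*Fgg*, the γ chain, was at 147, 177, 267 and 201 CPM in WT and at 128, 106 and 120 CPM in WDR6-WKO. The highest WDR6-WKO library was below the lowest WT library, but the WT libraries were far apart from each other, and the log2 fold change of −0.75 ± 0.22 did not pass the test (adjusted p = 0.0939). *Fgg* did pass in DESeq2 (adjusted p = 0.0135), in limma-voom (adjusted p = 0.00797) and in edgeR without WT replicate 1 or without WT replicate 3 (adjusted p = 0.0102 to 0.0225). It also met the thresholds of the study's methods, which use the unadjusted p. In the *Fgg* transcript 6.78% of the bases are overlapped by Gm30097 on the other strand, and whether the counting used strand is not given in the sources used here. The summed fibrinogen level was 2964, 3077, 3638 and 3530 CPM in WT and 2497, 2265 and 2432 CPM in WDR6-WKO. WT replicates 3 and 4 were the highest libraries for each of the 3 chains. Per kilobase, *Fga* stood at 35.9% to 39.5% of *Fgb* in WT and at 37.5% to 39.3% in WDR6-WKO, while *Fgg* stood at 14.5% to 22.6% in WT and at 13.8% to 15.4% in WDR6-WKO, so for both chains the ranges of the genotypes overlapped. *F13b*, the carrier subunit of the factor that crosslinks fibrin, was at 5.1 ± 0.901 CPM in WT and 5.32 ± 0.514 CPM in WDR6-WKO (mean ± s.d., n = 4 and 3; log2 fold change 0.06 ± 0.16, adjusted p = 0.842).

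**Figure D2:**
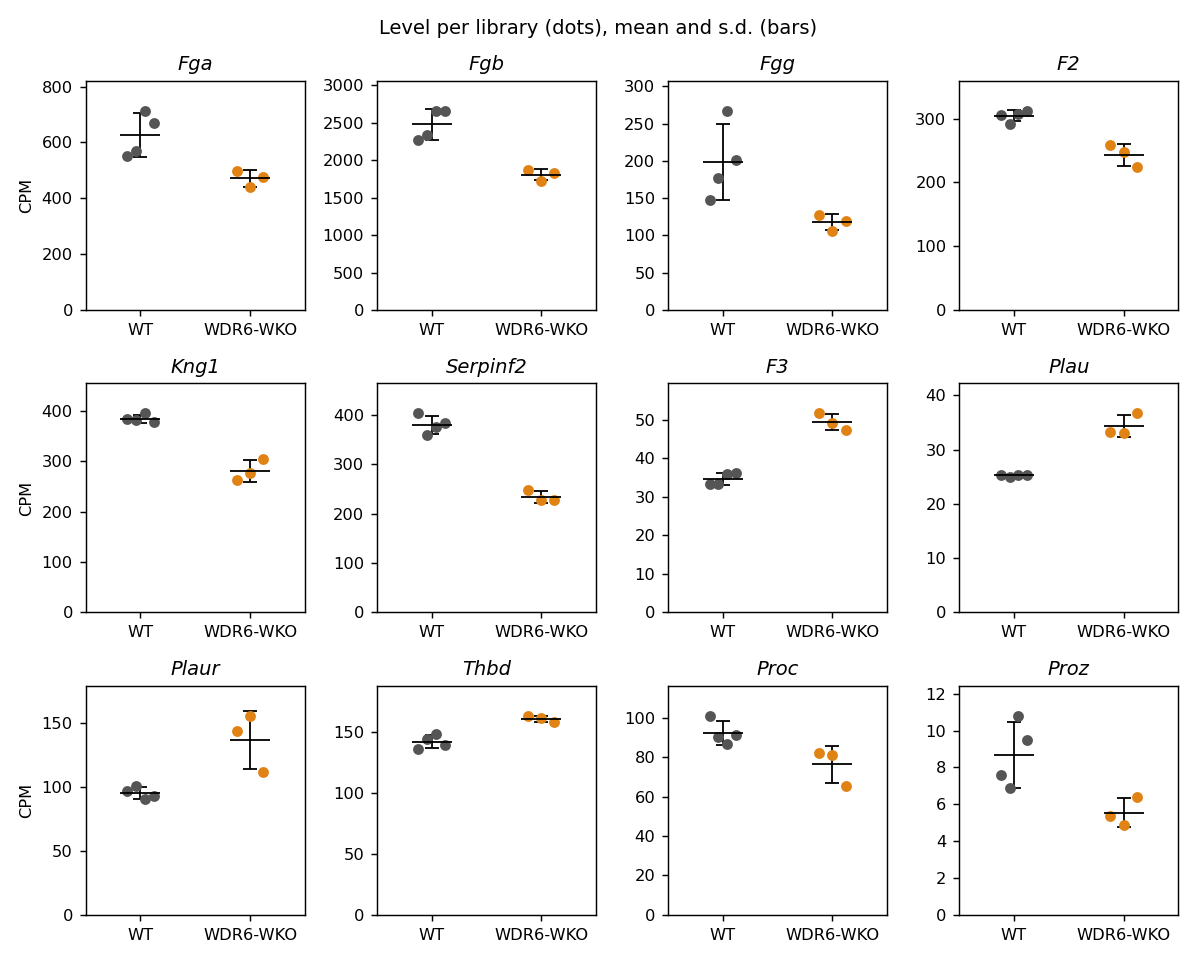
CPM (y axis, from 0 in each panel) in every library (points) of 12 of the 36 genes, with WT (n = 4) and WDR6-WKO (n = 3) side by side and the mean and s.d. of each group in black. *Serpinf2*, *Fgb* and *Kng1* lie lower in all WDR6-WKO libraries than in all WT libraries, *F3*, *Plau* and *Plaur* are higher, and the WT values of *Fgg* spread from 147 to 267 CPM.

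Of the common pathway, *F2* and *F10* fell. *F2*, which encodes prothrombin, was at 306, 292, 307 and 312 CPM in WT and at 258, 247 and 224 CPM in WDR6-WKO. No library of one genotype reached the other, and *F2* fell by 20% (log2 fold change −0.32 ± 0.05, adjusted p = 0.000784). *F10*, which encodes factor X, was at 11.2, 14.5, 16.6 and 14.7 CPM in WT and at 10.9, 10.8 and 8.27 CPM in WDR6-WKO, so that WT replicate 1 nearly met the WDR6-WKO libraries. Its log2 fold change was −0.50 ± 0.13 (adjusted p = 0.0219), and the adjusted p rose to between 0.0604 and 0.0779 when WT replicate 2, 3 or 4 was left out, with log2 fold changes of −0.50 to −0.42. *F5*, the cofactor of factor X, was at 86.9 ± 4.05 CPM in WT and at 64.2, 66.7 and 88.3 CPM in the WDR6-WKO libraries. WDR6-WKO replicate 3 lay within the WT range and the other two below it. The log2 fold change of *F5* was −0.25 ± 0.09 with all libraries (adjusted p = 0.0997) and −0.41 without WDR6-WKO replicate 3 (adjusted p = 1.03e-06).

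Of the contact factors, both kininogen genes fell. *Kng1*, which encodes kininogen, the carrier of prekallikrein and factor XI, was at 383, 382, 395 and 377 CPM in WT and at 262, 276 and 305 CPM in WDR6-WKO (log2 fold change −0.45 ± 0.05, adjusted p = 3.77e-05). *Kng2*, the second mouse kininogen gene, lies 28.4 kb away on chromosome 16 and was at 250, 253, 251 and 258 CPM in WT and at 204, 198 and 216 CPM in WDR6-WKO (log2 fold change −0.30 ± 0.05, adjusted p = 0.00053). For both genes the WDR6-WKO libraries were well under the WT range. Since 20% of the 50-base stretches of *Kng1* also occur in *Kng2*, and 18.2% of those of *Kng2* in *Kng1*, reads may have been shared between them and the 2 values are not independent. *F12*, factor XII, was at 59.0 ± 2.11 CPM in WT and at 61.3, 55.3 and 42.2 CPM in WDR6-WKO, with WDR6-WKO replicate 3 the lowest (log2 fold change −0.15 ± 0.10, adjusted p = 0.344). The *F12* value was −0.02 without WDR6-WKO replicate 3 (adjusted p = 0.865) and −0.28 without WDR6-WKO replicate 1 (adjusted p = 0.0872). *Klkb1*, prekallikrein, was counted at 1.89 ± 0.59 CPM in WT and 1.34 ± 0.183 CPM in WDR6-WKO (log2 fold change −0.48 ± 0.27, adjusted p = 0.267), and 43.2% of its transcript is overlapped by Gm45753 on the same strand, so its value is uncertain.

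Of the intrinsic pathway, *F11* fell. *F11*, which encodes factor XI, was at 39.9, 43.6, 42.6 and 42.3 CPM in WT and at 32.5, 29.0 and 33.7 CPM in WDR6-WKO. Its groups were clearly separate (log2 fold change −0.41 ± 0.07, adjusted p = 0.00107), while *Klkb1*, its neighbour 4.66 kb away on chromosome 8, did not pass. *F9*, factor IX, was at 29.0 ± 2.1 CPM in WT and 29.5 ± 3.47 CPM in WDR6-WKO (log2 fold change 0.02 ± 0.09, adjusted p = 0.906). *F8*, factor VIII, was at 3.91 ± 0.965 and 3.86 ± 1.49 CPM (log2 fold change −0.03 ± 0.25, adjusted p = 0.951). Without WDR6-WKO replicate 3 the *F8* value was −0.36 (adjusted p = 0.226). *Vwf*, von Willebrand factor, the carrier of factor VIII, was at 1.11 ± 0.184 and 1.24 ± 0.171 CPM (log2 fold change 0.16 ± 0.26, adjusted p = 0.75). At such levels the standard errors were several times those of the abundant genes.

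The start of the extrinsic pathway went the other way. *F3*, which encodes tissue factor, was at 33.2, 33.3, 35.8 and 36.1 CPM in WT and at 51.6, 49.0 and 47.4 CPM in WDR6-WKO. Each WDR6-WKO library was above each WT library, with a fitted rise of 42.7% (log2 fold change 0.51 ± 0.06, adjusted p = 6.41e-05). It was the only one of the 17 procoagulant genes that rose at this threshold. *F7*, factor VII, was at 11 ± 1.11 CPM in WT and 11 ± 0.388 CPM in WDR6-WKO (log2 fold change 0.00 ± 0.11, adjusted p = 0.989). *F7*, *F10* and *Proz* follow each other on the plus strand of chromosome 8, with 1.5 kb and 4.24 kb between them, and of these *F10* and *Proz* passed the test. In all, 8 of the 17 procoagulant genes were called (47.1%, against 12.8% of all genes tested), 7 of them lower (41.2% against 6.18%). The median log2 fold change of the 17 was −0.30.

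Among the anticoagulant genes, *Proc* and *Proz* fell and *Thbd* rose, 3 of 8 genes (37.5%, against 12.8% of all genes tested). The median log2 fold change over the 8 was −0.13. *Thbd*, thrombomodulin, the receptor that turns thrombin into an activator of protein C, was at 136, 144, 148 and 139.5 CPM in WT and at 163, 161 and 158 CPM in WDR6-WKO. The groups were separate but the fitted rise was small, 13.2% (log2 fold change 0.18 ± 0.05, adjusted p = 0.0223). *Proc*, which encodes protein C, was at 101, 90.1, 86.8 and 91.2 CPM in WT and at 82.3, 81.3 and 65.5 CPM in WDR6-WKO, with the lowest value in WDR6-WKO replicate 3 (log2 fold change −0.27 ± 0.08, adjusted p = 0.0333). Without that library *Proc* was at −0.18 (adjusted p = 0.0161). *Proz*, protein Z, the cofactor of the inhibitor of factor X, was at 7.61, 6.86, 10.8 and 9.49 CPM in WT and at 5.36, 4.87 and 6.42 CPM in WDR6-WKO. The WDR6-WKO libraries were all below the WT range, by little (log2 fold change −0.65 ± 0.16, adjusted p = 0.0156). Each of these 3 calls was lost when certain libraries were left out. *Thbd* had an adjusted p of 0.0547 to 0.0936 (log2 fold change 0.16 to 0.19) without WT replicate 1, 2 or 4 or WDR6-WKO replicate 1 or 2. *Proc* had 0.0652 to 0.095 (−0.28 to −0.23) without WT replicate 1, 2 or 4, and also lost its call, with 0.0573, when library sizes alone were used for scaling. *Proz* had 0.0554 to 0.0801 (−0.63 to −0.53) without WT replicate 3 or 4 or WDR6-WKO replicate 1 or 2.

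The main serpin inhibitors of clotting were lower by amounts that did not pass. *Serpinc1*, antithrombin, was at 67.8, 69.8, 71.8 and 63.8 CPM in WT and at 60.5, 61.7 and 61.0 CPM in WDR6-WKO. All WDR6-WKO values lay under the WT range, with a log2 fold change of −0.16 ± 0.06 (adjusted p = 0.0783). Of its transcript 59.2% is overlapped by *Zbtb37* on the other strand, so the value is uncertain without knowledge of the strand setting. *Serpind1*, heparin cofactor II, had a log2 fold change of −0.12 ± 0.07 (adjusted p = 0.26). *Pros1*, protein S, the cofactor of activated protein C, was at 191 ± 3.8 CPM in WT and 175 ± 7.56 CPM in WDR6-WKO, also with separate ranges (−0.13 ± 0.05, adjusted p = 0.0896). Without WDR6-WKO replicate 3 these 3 genes passed, with adjusted p of 0.0327 for *Serpinc1*, 0.0363 for *Serpind1* and 0.00324 for *Pros1* and log2 fold changes of −0.16, −0.17 and −0.17. *Procr*, the endothelial protein C receptor, was at 17.8 ± 2.89 and 19.5 ± 2.38 CPM (0.14 ± 0.12, adjusted p = 0.503), and *Tfpi*, tissue factor pathway inhibitor, at 9.27 ± 1.34 and 8.62 ± 0.615 CPM (−0.10 ± 0.13, adjusted p = 0.65).

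**Figure D3:**
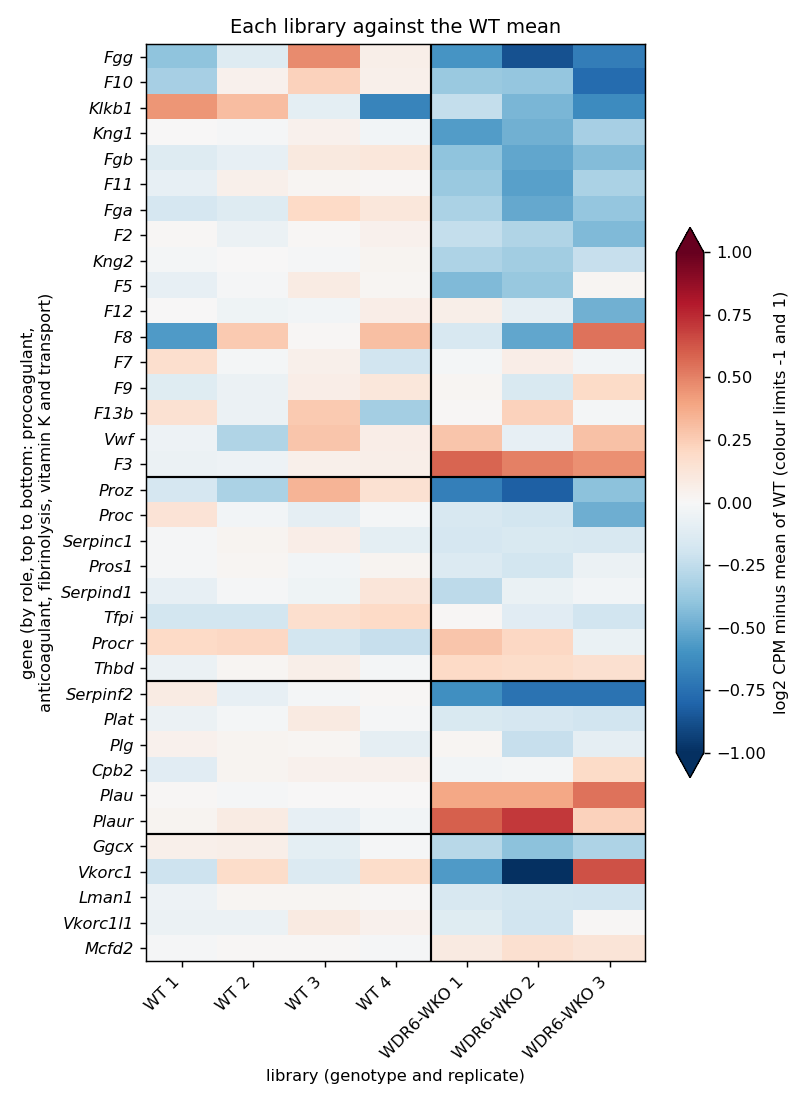
Log2 CPM of each of the 36 genes (rows) in each of the 7 libraries (columns), as the difference from the WT mean, in colour from lower to higher, with the colour scale cut at its ends. *Serpinf2* and the fibrinogen genes are low across all WDR6-WKO libraries, *F3* and *Plau* are high across them, and WDR6-WKO replicate 3 departs from the other two for *F5*, *F12* and *Plaur*.

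In fibrinolysis *Serpinf2* and *Plat* fell and *Plau* and *Plaur* rose. *Serpinf2*, which encodes α2-antiplasmin, the main inhibitor of plasmin, was at 403, 359, 375 and 383 CPM in WT and at 248, 227 and 228 CPM in WDR6-WKO. It fell by 38.3% with no overlap (log2 fold change −0.70 ± 0.05, adjusted p = 5.31e-07), the smallest p of the 36 genes. *Plau*, urokinase-type plasminogen activator, was at 25.4, 25.0, 25.3 and 25.3 CPM in WT and at 33.2, 33.1 and 36.7 CPM in WDR6-WKO. The WT libraries were almost level and all WDR6-WKO libraries were higher, with a fitted rise of 35.8% (log2 fold change 0.44 ± 0.07, adjusted p = 0.000514). *Plaur*, the urokinase receptor, was at 97.4, 101, 90.5 and 93.4 CPM in WT and at 144, 156 and 112 CPM in WDR6-WKO (log2 fold change 0.52 ± 0.09, adjusted p = 0.00318). WDR6-WKO replicate 3 was the nearest to WT, and without it the log2 fold change was 0.65.

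*Plat*, tissue-type plasminogen activator, was at 201, 207, 223 and 209 CPM in WT and at 189, 186 and 184 CPM in WDR6-WKO. Its groups were separate and the change small (log2 fold change −0.17 ± 0.05, adjusted p = 0.0313). The adjusted p of *Plat* was 0.0704 to 0.121 (log2 fold change −0.18 to −0.14) when any library but WT replicate 1 or WDR6-WKO replicate 3 was left out, and 0.0633 with library sizes alone. *Plg*, plasminogen itself, was at 52.6, 52.4, 51.8 and 48.0 CPM in WT and at 51.9, 43.6 and 48.1 CPM in WDR6-WKO. The groups overlapped (log2 fold change −0.10 ± 0.07, adjusted p = 0.384), and 15.2% of the *Plg* transcript is overlapped by *Slc22a3* on the other strand. *Cpb2*, a carboxypeptidase that protects fibrin from plasmin, was at 294 ± 14.3 CPM in WT and 304 ± 26.8 CPM in WDR6-WKO (0.05 ± 0.06, adjusted p = 0.636). Thus 4 of the 6 genes were called (66.7%, against 12.8% of all genes tested), 2 in each direction. The median log2 fold change of the 6 was −0.02.

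Vitamin K serves as cofactor of a carboxylase that modifies glutamates in prothrombin, factors VII, IX and X and proteins C, S and Z before they are secreted. *Ggcx*, which encodes that carboxylase, was at 37.6, 37.7, 33.9 and 35.8 CPM in WT and at 29.9, 27.3 and 29.2 CPM in WDR6-WKO. No WDR6-WKO library reached the WT range, and *Ggcx* fell by 20.6% (log2 fold change −0.33 ± 0.07, adjusted p = 0.00485). Of the 7 substrates among the 36 genes, *F2*, *F10*, *Proc* and *Proz* fell (57.1%, against 6.18% of all genes tested) and none rose. The median log2 fold change of the 7 was −0.27. *Vkorc1*, the reductase that restores vitamin K, was at 1.12 ± 0.158 CPM in WT and at 0.748, 0.284 and 1.73 CPM in WDR6-WKO, a spread wider than any difference between groups (log2 fold change −0.33 ± 0.42, adjusted p = 0.657). It passed without WDR6-WKO replicate 3 (−1.08, adjusted p = 0.0417), but 53.6% of its transcript is overlapped by Gm21974 on the same strand, so its value is uncertain. *Vkorc1l1*, a related reductase, was at 59.4 ± 3.02 and 55.5 ± 3.85 CPM (−0.10 ± 0.06, adjusted p = 0.347).

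*Lman1* and *Mcfd2* encode the 2 parts of the receptor that carries factors V and VIII from the endoplasmic reticulum to the Golgi. *Lman1* was at 136, 143, 143 and 142 CPM in WT and at 126, 125 and 124 CPM in WDR6-WKO. It was lower in every WDR6-WKO library (log2 fold change −0.17 ± 0.05, adjusted p = 0.0235), with an adjusted p of 0.0582 to 0.0779 (−0.19 to −0.17) when any library but WT replicate 1 or WDR6-WKO replicate 3 was left out, and 0.0502 with library sizes alone. *Mcfd2* was at 196 ± 1.54 CPM in WT and 214 ± 5.51 CPM in WDR6-WKO, with the WDR6-WKO libraries all above the WT range (0.13 ± 0.04, adjusted p = 0.0695). *Mcfd2* passed with library sizes alone (adjusted p = 0.0288) and without WDR6-WKO replicate 3 (adjusted p = 0.0201). Of the 5 genes of the vitamin K cycle and transport, 2 were called (40%, against 12.8% of all genes tested). Both were lower (40% against 6.18%). The median log2 fold change of the 5 was −0.17.

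**Figure D4:**
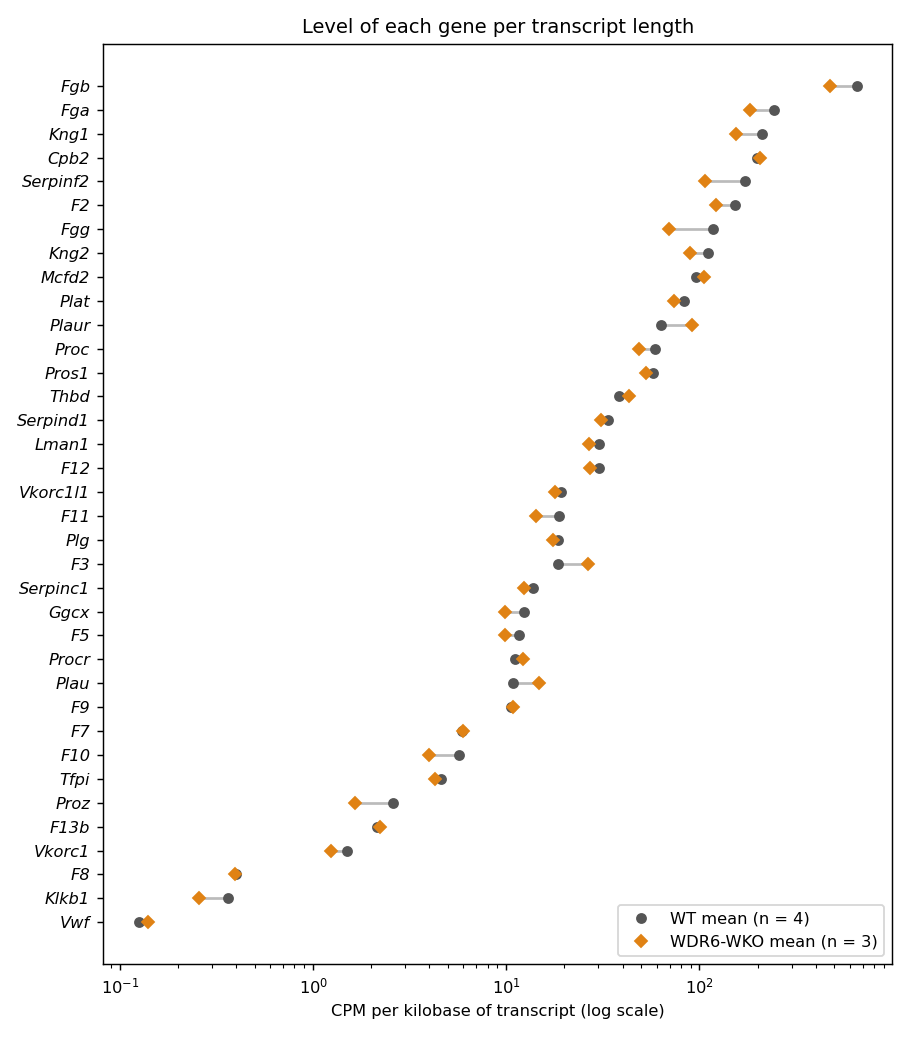
Mean CPM per kilobase of transcript (log axis) of each of the 36 genes in WT and WDR6-WKO, ordered by the WT level. The levels run from *Fgb* at 650.4 CPM per kilobase in WT down to *Vwf* at 0.125 CPM per kilobase, and the shifts between genotypes are small on this range.

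Across the 36 genes, *F3*, *F11*, *Kng1*, *Kng2*, *F2*, *Fgb*, *Plau*, *Plaur*, *Serpinf2* and *Ggcx* were called in the same direction in each of the 14 other fits. These fits changed the test, the scaling, the filter or the block, or left out 1 library each. Of these 10 genes, *Kng2*, *F2* and *Ggcx* did not reach the log2 fold change of the study's thresholds, which were not among the 14 fits. In an exact two-sided permutation test of log2 CPM over single genes the smallest p that 4 against 3 libraries can give is 0.0286, a value that these 10 genes reached, as did *Proc*, *Thbd*, *Plat* and *Lman1*, which lost their call in other fits, and *Pros1* and *Mcfd2*, which were not called. Promoter windows were found in RefSeq for 28 of the 36 genes, 29 windows in all. The letters GTTAAT were in 17.2% of these windows (*F13b*, *F2*, *Fga*, *Fgb* and *Proz*) against 7.1% of all promoter windows of the same length. The letters TTGCNNAA were in 37.9% (*Cpb2*, *F11*, *F9*, *Fga*, *Fgb*, *Ggcx*, *Klkb1*, *Kng2*, *Plaur*, *Procr* and *Serpinc1*) against 10.8%. Of the genes with the latter motif, *Plaur* rose, *F11*, *Fga*, *Fgb*, *Ggcx* and *Kng2* fell, and the others did not pass. Among the other genes that rose, *F3* had a window without it, and *Plau* and *Thbd* had no window. *F2*, *F10*, *Proz* and *Serpinf2* fell, and their windows lack it. *Kng1*, *Proc*, *Plat* and *Lman1*, which also fell, had no window. CAAAGTCCA, part of an HNF4 site, TGATGNAAT, a C/EBP–ATF composite, and GAAANNGAA, the core of an interferon response element, were in none of the members' windows and in 0.475%, 0.965% and 8.56% of all windows.

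Markers of cell types were read beside these values, and every marker present in the table had at least 50 counts over the 7 libraries. Of all genes tested 12.8% were called, 6.65% higher and 6.18% lower. The shares called were 54.5% of hepatocyte markers, 41.2% of liver transcription factors and 7.14% of sinusoidal endothelial markers. They were 33.3% of Kupffer cell, 33.3% of cholangiocyte and 41.7% of stellate cell markers. Of 11 hepatocyte markers 6 fell and none rose (among them *Apoa1*, *Cps1* and *Hnf4a*), with a median log2 fold change of −0.34 and sums of 13458 to 16013 CPM in WT and 12423 to 14323 CPM in WDR6-WKO. *Alb*, albumin, was at 7366 ± 730.4 and 6479.9 ± 363 CPM (adjusted p = 0.101). Of 17 liver transcription factors 7 fell and none rose. These move with the lower hepatocyte-made factors, and their part in that result was not tested. Of 14 sinusoidal endothelial markers 1 fell (*Tek*) and none rose, with sums of 472 to 536 CPM in WT and 441 to 522 CPM in WDR6-WKO. Of the genes described above as endothelial, *Thbd* was higher and *F8*, *Vwf* and *Procr* did not pass. *Plat*, which fell, and *Tfpi*, which did not pass, were given no cell type there. In WT *Thbd* had a mean of 142 CPM, above each of the sinusoidal endothelial markers (the highest was *Eng*, at 106 CPM). Which cells held *Thbd* was not tested. Of 15 Kupffer cell markers 4 rose (*C1qb*, *C1qc*, *Lyz2* and *Fcgr1*) and 1 fell (*Slc40a1*), with sums of 1219.7 to 1343 CPM in WT and 1327 to 1506 CPM in WDR6-WKO. Cholangiocyte markers, of which 6 of 7 were tested and *Sox9* and *Spp1* rose, summed to 3137 to 3435 CPM in WT and 3809 to 4379.8 CPM in WDR6-WKO. Most of that sum was *Spp1*, at 2979.9 ± 178 and 3693 ± 338 CPM, while *Krt19* (log2 fold change −0.05, adjusted p = 0.783) and *Krt7* (−0.10, adjusted p = 0.784) did not pass. Of 12 stellate cell markers 3 rose and 2 fell, with sums of 933 to 966 and 922 to 1001 CPM. Of 8 megakaryocyte and platelet markers 2 were in the table, at 4.37 to 5.95 CPM summed in WT and 6.82 to 8.60 CPM in WDR6-WKO, with *Pf4* higher. *F3*, *Plau* and *Plaur* can be expressed by such cells too, and whether these marker differences bear on their rise was not tested.

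Of 30 further genes of clotting and fibrinolysis outside the 36, 27 were tested, with a median log2 fold change of −0.05. Of these, 11 were called (40.7%, against 12.8% of all genes tested). They were 3 higher (11.1% against 6.65%) and 8 lower (29.6% against 6.18%). *Serpine2*, protease nexin 1, an inhibitor of thrombin and plasminogen activators, was at 79.5 ± 3.13 CPM in WT and 54.3 ± 4.15 CPM in WDR6-WKO (−0.55 ± 0.06, adjusted p = 3.26e-05). *Serpina10*, the inhibitor of factor X that works with protein Z, was at 22.1 ± 2.12 and 15.7 ± 2.76 CPM (−0.49 ± 0.11, adjusted p = 0.00956), so that both it and *Proz* were lower. *F13a1*, the catalytic subunit of factor XIII, was at 0.632 ± 0.191 CPM in WT and 2.52 ± 0.699 CPM in WDR6-WKO (1.97 ± 0.29, adjusted p = 0.000276), a rise from a very low level in a gene known from platelets and macrophages. Lower values were also found for *Fgl1*, a fibrinogen-like protein (−0.39, adjusted p = 0.00149), and *C4bp*, a complement regulator (−0.25, adjusted p = 0.0233). *Masp2*, a protease of the lectin pathway of complement, was lower too (−0.49, adjusted p = 0.00443). Higher values were found for *Hrg*, a plasma glycoprotein that binds plasminogen (0.44, adjusted p = 0.0106), and *S100a10*, a plasminogen receptor subunit (0.20, adjusted p = 0.0277).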

How the data were processed

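RNA of 7 samples of mouse primary hepatocytes was sequenced. The authors aligned reads to GRCm38 with Bowtie (Bowtie2 2.2.3 in the submitters' processing notes) and deposited raw whole-number counts for each gene symbol. The counting tool, its annotation and its strand setting are not given in the sources used here. The smallest total of any entry over the 7 libraries was 50 counts. The libraries held between 17816913 and 23668940 counts, and with a biological coefficient of variation of 7.4% the spread between replicates exceeds counting error except in genes of few reads; the smallest total of any of the 36 genes was 142 counts.

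Counts were scaled by TMM, filtered with filterByExpr and tested for genotype, with no covariate, by the robust quasi-likelihood test of edgeR 4.0.16 in R 4.3.3, with Benjamini-Hochberg adjustment over the 14779 genes tested. The study used DESeq2, which was run as an alternative (1.42.0), as were voom in limma 3.58.1, median-of-ratios scaling, scaling to library sizes alone, the absence of a filter, a minimum of 10 counts in each library, the replicate number as a block, each library left out in turn, and the thresholds of the study's methods. The p-values set the difference between genotypes against the spread between libraries of the same genotype. Each library counted once, and the paper describes its replicates as biological. Libraries of 1 genotype differed by more than sampling noise, which cannot tell separate animals from separate preparations of 1 animal. The scripts were tested on simulated data.

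The 36 genes and all gene lists were chosen with earlier results of these data known. Every one of the 36 genes is named. Values in every library are given for those with an adjusted p below 0.05 and for *F2*, *Fga*, *Fgb*, *Fgg*, *Serpinc1*, *Proc* and *Plg* (also for some genes in which 1 WDR6-WKO library differed, chosen after their values were seen). Of the other pathway genes, the 8 with the smallest p are named. *F2rl2*, *Adamts13* and *Mgp* from that list were not analysed here. Coordinates, transcript lengths and overlaps came from the GENCODE annotation of GRCm38, shared sequence was counted in stretches of 50 bases, and promoters were those of RefSeq on GRCm38.p6, searched on both strands.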

Additional observations from a re-analysis of the deposited data

Results flagged for a closer look

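In each of the 36 genes the 4 WT libraries were examined for a library far from the rest, by the gap between the extreme library and its neighbour divided by the range of the group, against Dixon's 95% critical value for a group of 4. Chance alone would exceed it in about 1 in 20 groups. In *Cpb2* this ratio was 0.877, because WT replicate 1 was at 273 CPM and the other WT libraries were at 299, 303 and 301 CPM. In *Lman1* it was 0.834, with WT replicate 1 at 136 CPM and the others at 143, 143 and 142 CPM. These were 2 of 36 genes. Groups of 3 libraries were not examined in this way.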

How the results depend on the processing

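Of the 36 genes, 17 were called by edgeR, 18 by DESeq2 or limma-voom (with *Fgg* added to the 17), 17 with median-of-ratios scaling, with no filter or with at least 10 counts in every library, and 15 with library sizes alone. The share called among all genes in these fits ran from 12.5% to 13.6%. Leaving out each library in turn gave 11 to 22 calls, 8 to 17 of them lower, while the share called among all genes ran from 6.98% to 28.6% in the same fits. The corresponding ranges were 0 to 6 for the anticoagulant genes, 1 to 4 for vitamin K and transport and 6 to 14 for the other pathway genes. With the thresholds of the study's methods 11 of the 36 were called, 8 of them lower, as were 7 of the other pathway genes, 1 anticoagulant gene and 0 genes of vitamin K and transport. The 0 for anticoagulant genes came from edgeR without WT replicate 4, where 5 of the 8 had an unadjusted p below 0.05, and in vitamin K and transport 3 of the 5 had one with all libraries but log2 fold changes under 0.35. Library sizes alone moved the median of all genes to 0.03 and the calls over all genes from 983 higher and 914 lower to 1212 higher and 696 lower.

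The groups share replicate numbers, but deviations of same-numbered libraries correlated at only 0.092, 0.042 and 0.075, and WT replicate 1 correlated best with WDR6-WKO replicate 2 (0.18), so the numbers were not taken as pairs. With the replicate block 15 of the 36 were called, and the share among all genes was 11.9%. WT replicate 4 has no WDR6-WKO library of its number, so it did not inform the genotype difference in that fit. The block lost *F10*, *Thbd*, *Plat* and *Lman1* and gained *F5* and *Serpinc1*. That left 1 call in vitamin K and transport and a median of −0.10 for the anticoagulant genes. In the same blocked fit *F7* (−0.06), *F8* (0.06) and *F13b* (−0.04) changed sign.

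The median log2 fold change of the anticoagulant genes was −0.10 with library sizes alone and −0.16 to −0.10 when a library was left out. That of the fibrinolysis genes turned to 0.003 with library sizes alone and ranged from −0.06 to 0.02 when a library was left out, and that of vitamin K and transport ranged from −0.19 to −0.06. Signs also changed in genes that were not called: *F7* was at −0.0018 in DESeq2, at −0.0019 with median-of-ratios scaling and at −0.06 to 0.06 when a library was left out, and under the same omissions *F8* ranged from −0.36 to 0.17, *F9* from −0.06 to 0.10, *F13b* from −0.04 to 0.15, *Cpb2* from −0.03 to 0.08 and *Vkorc1* from −1.08 to 0.10. The cause of these changes was not tested. *Vwf*, *Vkorc1*, *Klkb1*, *F8*, *F13b* and *Proz* are limited by few reads.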
